A study of Mus musculus with 12 samples.

Results

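The transcripts described here are those of 9 genes of the cytosolic heat shock response in cultured primary mouse hepatocytes, the main parenchymal cells of the liver. They are Hspa1a, Hspa1b, Hsph1, Dnajb1, Hspb1, Hsp90aa1, Hspa8, Bag3 and Hsf1. They were taken by symbol from the 55487 gene identifiers in the count files, and all 9 were among the 13535 genes with enough reads to be tested.

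The response is the classical answer of a cell to misfolded protein in the cytosol. Heat shock factor 1, the product of Hsf1, is held inactive by chaperones in resting cells and, when misfolded protein occupies these chaperones, binds heat shock elements, arrays of the inverted pentamer nGAAn, in the promoters of chaperone genes. The induced proteins include the stress-inducible HSP70s, the J-domain proteins that bring them clients, the HSP110 and BAG proteins that exchange their nucleotide, small heat shock proteins that hold unfolded chains, and HSP90. HSF1 is controlled largely at the level of the protein, so the amount of its transcript is not a readout of its activity.

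The 12 RNA-seq libraries form 4 groups of 3. Control hepatocytes received neither a scavenger nor FAC, a treatment whose abbreviation the labels do not spell out. The FAC group was given FAC alone. On day 2 of culture the Lip-1+FAC group was first given liproxstatin-1, which scavenges lipid reactive oxygen species, and the MT+FAC group Mito-TEMPO, which scavenges mitochondrial reactive oxygen species, and both then received FAC. No group received a scavenger without FAC, so an effect of either scavenger by itself cannot be told apart from its effect on the FAC response. The labels used here give no strain, sex, age, dose or duration, and do not say whether replicates came from separate animals or cultures. The p-values therefore measure the spread between these samples, which may be technical.

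Libraries held 22991598 to 31683376 counts assigned to genes, except FAC replicate 2 with 52529278. The file of that library carries the word combined in its name, without further detail. It was the highest FAC library for 6 of the 9 genes. All 6 hepatocyte markers were detected, summing to 16272 to 16739 CPM in control libraries, 15427 to 16197 with FAC, 12447 to 13547 with Lip-1+FAC and 12878 to 14160 with MT+FAC (CPM, counts scaled to a common library size after TMM normalisation). Most of this sum was Alb, and without it the ranges were 6744 to 6995, 5860.2 to 6261, 4517 to 4876 and 4683 to 5071 CPM. Against control, 2 of the 6 were called lower with FAC alone (Cps1, from 1695 ± 221 to 711 ± 146.2 CPM, and Tat, from 70.95 ± 6.31 to 38.5 ± 3.42 CPM), 6 with liproxstatin-1 before FAC and 4 with Mito-TEMPO. The 3 lymphocyte markers, too low to be tested, summed to 0.0375 to 0.384 CPM in control libraries and 0.121 to 0.192 with FAC. They summed to 0.254 to 0.400 with Lip-1+FAC and 0.156 to 0.432 with MT+FAC. Of these, Cd3e was at 0 in every library. The 4 cholangiocyte markers Krt19, Krt7, Epcam and Sox9 summed to 20.9 to 23.8 CPM in control libraries, 58.0 to 74.3 with FAC, 12.4 to 15.6 with Lip-1+FAC and 17.1 to 20.1 with MT+FAC. All 4 were called higher in FAC than in control and lower in each pretreated group than in FAC, so they moved in the direction of the inducible HSP70 genes and of Hspb1. Most of this sum was Sox9, at 17.4 ± 2.20 CPM without FAC and 53.4 ± 4.10 CPM with FAC (SD, n = 3). In each of 3 other lists the differences between groups rested largely on 1 gene. The 6 macrophage markers summed to 223 to 254 CPM in control libraries, 289 to 321 with FAC, 116 to 146.2 in the Lip-1+FAC group and 142.6 to 174 in the MT+FAC group, and without Cd68 to 6.31 to 9.40, 9.52 to 10.1, 8.67 to 10.01 and 7.69 to 12.6 CPM. In the same order, the 6 stellate cell or fibroblast markers summed to 10.3 to 15.0, 19.4 to 20.1, 8.48 to 10.1 and 10.1 to 10.99 CPM. Without Reln they summed to 4.42 to 6.96, 3.29 to 4.20, 4.57 to 5.25 and 4.82 to 5.35 CPM, lowest in FAC. The 5 endothelial markers summed to 34.5 to 35.9, 33.3 to 34.2, 24.7 to 26.5 and 25.5 to 29.5 CPM, and without Stab2 to 6.02 to 8.25, 6.98 to 7.67, 6.33 to 8.99 and 7.35 to 8.94 CPM. The part of other cell types in the results was not tested. In bulk RNA, fewer cells of a type and less RNA per cell cannot be told apart.

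The genes spanned a wide range of levels in untreated cells. Per kilobase of the longest annotated transcript, the constitutive chaperone gene Hspa8 led with 600.5 ± 44.2 CPM per kb in control (SD, n = 3). Hspb1 followed at 169 ± 10.5 and Hsp90aa1 at 128 ± 8.44 CPM per kb. Bag3 stood at 39.3 ± 0.706, Dnajb1 at 28.3 ± 2.99 and Hsph1 at 28.04 ± 1.98 CPM per kb. The levels of Dnajb1 and Hsph1 differed by less than their spread. Hsf1 was at 14.3 ± 0.451, Hspa1b at 3.25 ± 0.560 and Hspa1a at 0.330 ± 0.0887 CPM per kb, so the stress-inducible HSP70 genes were the least abundant. In Lip-1+FAC the order of the means changed, with Hsph1 at 41.5 ± 0.249 CPM per kb beside 39.9 ± 1.31 for Bag3 and 28.4 ± 2.09 for Dnajb1, and Hspb1 at 119 ± 15.6 below Hsp90aa1 at 132 ± 5.64 CPM per kb, a gap within the spread of Hspb1. In MT+FAC Hsph1, at 35.9 ± 2.23, stayed below Bag3, at 39.9 ± 3.67 CPM per kb, and Hspb1 and Hsp90aa1 were level at 119 ± 14.6 and 118 ± 2.13 CPM per kb. These levels can be too low for genes that share sequence with copies, because reads that map to several places were not counted. The same holds for genes whose exons overlap another gene, because ambiguous reads were not counted.

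In FAC-treated cells, 6 of the 9 genes were called higher than in control (edgeR, adjusted p under 0.05), and the other 3 were not called. Over all genes tested, 17.5% were called higher and 36.6% in either direction. The median log2 fold change of the 9 genes was 0.27, beside -0.0061 over all genes. The rise was steepest for the stress-inducible HSP70 genes Hspa1a and Hspa1b, smaller for the small heat shock protein gene Hspb1 and for Hsf1, and slight for Dnajb1 and Hspa8. The genes not called were Hsph1, Hsp90aa1 and Bag3. The same 6 genes had FAC libraries that all lay above all control libraries, an arrangement that 21.7% of the genes tested showed.

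**Figure D1:**
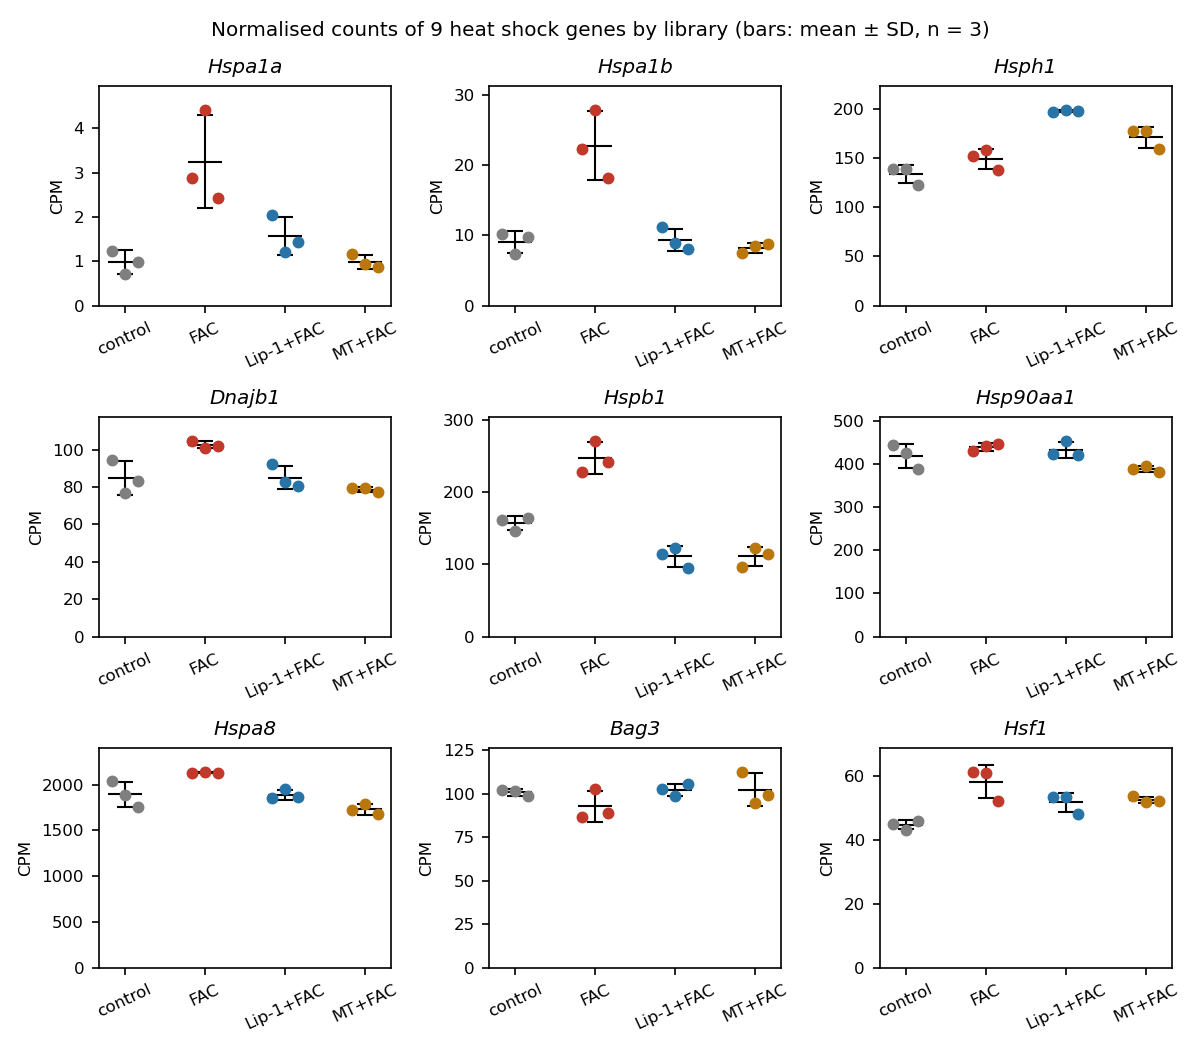
Normalised counts of the 9 genes (y axis, CPM, linear from 0) in each of the 12 libraries by group (x axis). Points are libraries and bars the mean and SD of 3. The FAC libraries of Hspa1a, Hspa1b and Hspb1 lie above all other libraries, whereas Hsph1 is highest in the Lip-1+FAC libraries.

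**Figure D2:**
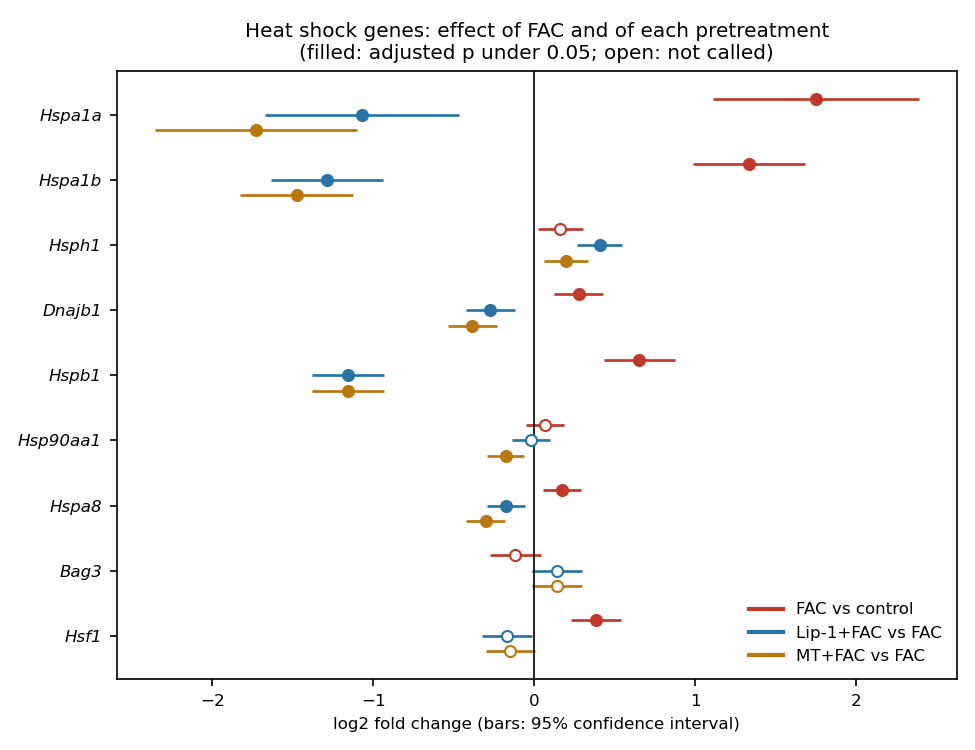
Log2 fold changes (x axis) with 95% confidence intervals for the 9 genes (y axis) in FAC against control and in each pretreated group against FAC. Filled points passed an adjusted p under 0.05; the inducible HSP70 genes and Hspb1 lie right of 0 for FAC and left of 0 for both pretreatments, and Hsph1 lies right of 0 throughout.

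Hspa1a and Hspa1b encode near-identical stress-inducible HSP70 proteins and lie next to each other on the minus strand of chromosome 17 of GRCm38, at 34969190 to 34972156 (Hspa1a, ENSMUSG00000091971) and 34956436 to 34959238 (Hspa1b, ENSMUSG00000090877). Of the 100-base stretches of their longest transcripts, 56.5% for Hspa1a and 49.9% for Hspa1b also occur in other annotated genes, chiefly in each other, and reads from such stretches were left uncounted. Of the exonic bases of Hspa1a, 19.0% also overlap Gm20481 on the opposite strand, which was at 0 in all libraries. Reads listed as ambiguous between genes, 5.16% to 5.71% of those listed per library, were not counted for any gene. That 0 therefore does not show how many Hspa1a reads the overlap cost. The duplication extends into the promoters, which are shown because these genes moved most. RefSeq windows for GRCm38.p6 of 250 bases before to 50 bases after the start were identical at 296 of 300 positions (98.7%), and the part before the start at 247 of 250. The sequences below are those 250 bases, 5′ to 3′ on the strand of the gene, chr17:34972157-34972406 for Hspa1a and chr17:34959239-34959488 for Hspa1b. Capitals mark a match to the paired heat shock pentamers GAANNTTC or TTCNNGAA, which each read the same on both strands.
Hspa1a: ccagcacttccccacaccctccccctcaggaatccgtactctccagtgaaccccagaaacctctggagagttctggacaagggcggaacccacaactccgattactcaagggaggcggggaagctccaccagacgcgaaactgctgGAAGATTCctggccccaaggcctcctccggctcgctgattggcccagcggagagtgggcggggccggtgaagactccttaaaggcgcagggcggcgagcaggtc
Hspa1b: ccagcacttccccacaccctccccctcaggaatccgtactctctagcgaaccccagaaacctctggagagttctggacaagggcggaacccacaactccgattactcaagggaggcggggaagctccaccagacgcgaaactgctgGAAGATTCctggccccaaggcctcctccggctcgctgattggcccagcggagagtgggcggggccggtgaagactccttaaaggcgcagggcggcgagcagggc
The match lies at -104 to -97 in both windows, with the start base counted as 0. Such a match is a description of the letters, and 15.1% of the 32851 RefSeq mouse windows hold at least 1.

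Hspa1b stood at 10.3, 7.32 and 9.75 CPM in control replicates 1 to 3 and at 22.3, 27.96 and 18.1 CPM in the FAC replicates. With liproxstatin-1 before FAC it stood at 11.1, 8.94 and 8.04 CPM, and with Mito-TEMPO before FAC at 7.44, 8.50 and 8.81 CPM. All FAC libraries were above all others, and the pretreated libraries overlapped the control libraries. The rise in FAC was 1.33 on the log2 scale (SE 0.166, edgeR adjusted p = 9.05e-06), a 2.52-fold increase. Against FAC, Hspa1b fell by 1.29 with liproxstatin-1 (SE 0.165, edgeR adjusted p = 9.49e-06) and fell by 1.48 with Mito-TEMPO (SE 0.166, edgeR adjusted p = 3.05e-06). Against control, the pretreated groups differed by 0.046 (95% confidence interval -0.32 to 0.41) and -0.14 (-0.51 to 0.22) on the log2 scale, and neither difference was called.

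Hspa1a rests on only 19 to 231 reads per library. It stood at 1.24, 0.713 and 0.987 CPM in control and at 2.89, 4.42 and 2.42 CPM in FAC. The Lip-1+FAC libraries held 2.04, 1.22 and 1.44 CPM and the MT+FAC libraries 1.16, 0.926 and 0.864 CPM. The FAC libraries were again above all others, and 1 of the 3 Lip-1+FAC libraries lay below the highest control library. The log2 rise in FAC was 1.75 (SE 0.303, edgeR adjusted p = 0.000204). Hspa1a fell by 1.07 with liproxstatin-1 (SE 0.287, edgeR adjusted p = 0.00645) and fell by 1.73 with Mito-TEMPO (SE 0.298, edgeR adjusted p = 0.000184) against FAC. The fall with liproxstatin-1 was not called without FAC replicate 2 (-0.76, edgeR adjusted p = 0.0705).

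With the reads of both genes summed, which removes the question of how unique reads are split between them, the rise in FAC was 1.38 (SE 0.170, edgeR adjusted p = 1.12e-05). The sum fell by 1.26 with liproxstatin-1 and fell by 1.51 with Mito-TEMPO against FAC (edgeR adjusted p = 2.00e-05 and 4.39e-06). Its mean was 10.1 ± 1.82 CPM in control cells, 26.0 ± 5.96 with FAC, 10.9 ± 1.97 with Lip-1+FAC and 9.23 ± 0.564 with MT+FAC (SD, n = 3). Hspa1a made up between 8.88% (Wilson 95% interval 5.76% to 13.5%) and 15.5% (12.1% to 19.6%) of the summed reads in a library. These intervals overlap and cover counting error only, since amplified reads without molecular identifiers are not independent molecules.

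Hspb1 encodes HSP25, the mouse form of the small heat shock protein HSP27, an ATP-independent holdase that also binds actin filaments. It lies on the plus strand of chromosome 5 at 135887919 to 135889563 (ENSMUSG00000004951). Its promoter is shown because it holds 2 separate matches, at -117 to -110 and -97 to -90, where 1.96% of all windows hold 2 or more. The 250 bases before the start are chr5:135887669-135887918 on the plus strand, with the matches in capitals.
Hspb1: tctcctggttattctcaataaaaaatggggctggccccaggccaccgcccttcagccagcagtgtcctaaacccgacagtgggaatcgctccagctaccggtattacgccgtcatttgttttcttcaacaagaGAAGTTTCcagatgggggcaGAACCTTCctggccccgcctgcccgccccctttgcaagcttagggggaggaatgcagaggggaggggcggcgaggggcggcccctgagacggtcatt
The control libraries held 162, 146.1 and 164 CPM of Hspb1 and the FAC libraries 228, 272 and 242 CPM. In Lip-1+FAC the values were 115, 123 and 94.99 CPM, and in MT+FAC 96.0, 123 and 114 CPM. The groups were fully apart, with FAC highest, control next and both pretreated groups lowest and overlapping each other. Hspb1 rose by 0.65 in FAC on the log2 scale (SE 0.103, edgeR adjusted p = 0.000208). It fell by 1.16 against FAC with liproxstatin-1 (SE 0.104, edgeR adjusted p = 1.06e-06) and fell by 1.16 with Mito-TEMPO (SE 0.104, edgeR adjusted p = 1.33e-06). Its pretreated levels were also called lower than control, with a log2 fold change of -0.50 in each group (edgeR adjusted p = 0.00223 with liproxstatin-1 and 0.00397 with Mito-TEMPO). With offsets for GC content and length, the falls against FAC were -0.69 and -0.71 and still called, and those against control were -0.14 and -0.16 and not called (edgeR adjusted p = 0.307 and 0.262). Of its 100-base stretches 42.7% occur in Gm9817 or Hsp25-ps1, which held at most 1.28 CPM in any library.

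Hsph1 encodes an HSP110 protein, the nucleotide exchange factor that lets HSP70 release its client and that keeps aggregated protein soluble. It lies on the minus strand of chromosome 5 at 149614287 to 149636376 (ENSMUSG00000029657), and none of its 100-base stretches occurs in another annotated gene. The window nearest its annotated start holds 3 pairs, of which 2 overlap to form 3 pentamers in a row. Such an overlap, of a GAANNTTC and a TTCNNGAA match that share 3 bases in either order, occurs in 0.603% of all windows, and lies here at 36 to 48 after the start. It is shown with a base on either side, chr5:149636287-149636301 on the minus strand, because Hsph1 is the gene of the 9 that was higher with pretreatment.
Hsph1: aTTCTGGAAAGTTCt
The control libraries held 139, 139 and 123 CPM of Hsph1 and the FAC libraries 151.7, 158 and 138 CPM. With liproxstatin-1 before FAC the values were 197, 199 and 197 CPM, and with Mito-TEMPO before FAC 178, 177 and 159 CPM. Control and FAC overlapped, whereas every pretreated library lay above every FAC library and the Lip-1+FAC libraries were highest of all. The difference between FAC and control, 0.16 (95% confidence interval 0.022 to 0.30), was not called (edgeR adjusted p = 0.0662). Against FAC, Hsph1 rose by 0.41 with liproxstatin-1 (SE 0.0660, edgeR adjusted p = 9.56e-05) and by 0.20 with Mito-TEMPO (SE 0.0660, edgeR adjusted p = 0.0234). Against control it rose by 0.57 (edgeR adjusted p = 5.56e-06) and by 0.36 (edgeR adjusted p = 0.00110). The rise with Mito-TEMPO against FAC was not called without FAC replicate 1 (0.20, edgeR adjusted p = 0.0611), FAC replicate 3 (0.15, 0.104), MT+FAC replicate 1 (0.16, 0.116) or MT+FAC replicate 2 (0.16, 0.111). It was also not called with offsets for GC content and length (0.12, edgeR adjusted p = 0.115).

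Dnajb1 encodes the J-domain protein HSP40, which delivers clients to HSP70 and stimulates its ATPase. It lies on the plus strand of chromosome 8 at 83608193 to 83612653 (ENSMUSG00000005483), and none of its 100-base stretches is shared with another annotated gene. It stood at 94.5, 76.8 and 83.3 CPM in control and at 105, 101 and 102 CPM in FAC. In Lip-1+FAC it stood at 92.1, 82.5 and 80.3 CPM, and in MT+FAC at 79.4, 79.2 and 77.2 CPM. The FAC libraries were above all others by a small margin. The rise in FAC was 0.27 on the log2 scale (SE 0.0727, edgeR adjusted p = 0.00626), and against FAC the gene fell by 0.27 with liproxstatin-1 (edgeR adjusted p = 0.00614) and fell by 0.39 with Mito-TEMPO (edgeR adjusted p = 0.000413). Of its 2 RefSeq windows, the one nearest its annotated start holds no match to either pair, and the other is not described here.

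Hspa8 encodes HSC70, the constitutive partner of the inducible HSP70s, and Hsp90aa1 the stress-responsive HSP90 alpha. Hspa8 lies on the plus strand of chromosome 9 at 40800984 to 40810087 (ENSMUSG00000015656), and its exons hold the small nucleolar RNA genes Snord14c, Snord14d and Snord14e over 6.09% of their bases. It stood at 2039, 1890.2 and 1760 CPM in control and at 2132, 2145 and 2129 CPM in FAC. The pretreated groups held 1855, 1949 and 1867 CPM with liproxstatin-1 and 1729, 1791 and 1676 CPM with Mito-TEMPO. The FAC libraries were nearly equal and above all others. Hspa8 rose by 0.17 in FAC (SE 0.0567, edgeR adjusted p = 0.0240), and against FAC it fell by 0.18 with liproxstatin-1 (SE 0.0566, edgeR adjusted p = 0.0195) and fell by 0.30 with Mito-TEMPO (SE 0.0567, edgeR adjusted p = 0.000396). The rise was not called without control replicate 2 (0.17, edgeR adjusted p = 0.0612), control replicate 3 (0.12, 0.136), FAC replicate 1 (0.18, 0.0575) or FAC replicate 2 (0.17, 0.0593). The fall with liproxstatin-1 was not called without FAC replicate 1 (-0.17, edgeR adjusted p = 0.0635), FAC replicate 2 (-0.17, 0.0539), Lip-1+FAC replicate 1 (-0.16, 0.0706) or Lip-1+FAC replicate 3 (-0.16, 0.0602). That fall was -0.31 with the offsets for GC and length (edgeR adjusted p = 0.000158).

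Hsp90aa1 lies on the minus strand of chromosome 12 at 110690605 to 110702728 (ENSMUSG00000021270). It stood at 444, 425 and 390 CPM in control and at 430.1, 442 and 447 CPM in FAC. The Lip-1+FAC libraries held 424, 455 and 421 CPM and the MT+FAC libraries 388, 396 and 382 CPM. Control, FAC and Lip-1+FAC overlapped, and the MT+FAC libraries lay below all FAC libraries. The FAC difference of 0.067 (95% confidence interval -0.049 to 0.18) was not called, nor was that of liproxstatin-1 against FAC, -0.020 (-0.14 to 0.096). With Mito-TEMPO it fell by 0.18 against FAC (SE 0.0553, edgeR adjusted p = 0.0154), a call that was lost without MT+FAC replicate 3 (-0.16, edgeR adjusted p = 0.0631). With offsets for GC content and length, Hsp90aa1 was called higher in FAC (0.15, edgeR adjusted p = 0.0351) and lower with liproxstatin-1 (-0.17, edgeR adjusted p = 0.0165), and the fall with Mito-TEMPO was -0.29. Of the 100-base stretches of Hsp90aa1 47.5% and of Hspa8 32.1% occur in other annotated genes, mostly processed pseudogenes. Those counted held at most 5.26 CPM for Hsp90aa1 and 33.2 CPM, in Gm15459, for Hspa8.

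Bag3 encodes a co-chaperone that exchanges the nucleotide of HSP70 and, together with HSPB8, routes clients to autophagy. It lies on the plus strand of chromosome 7 at 128523616 to 128546981 (ENSMUSG00000030847). It stood at 102, 101 and 98.5 CPM in control and at 86.3, 103 and 88.8 CPM in FAC. The Lip-1+FAC libraries held 103, 98.5 and 105 CPM and the MT+FAC libraries 113, 94.5 and 99.3 CPM. All groups overlapped, and 2 of the 3 FAC libraries were the lowest of the 12. No difference was called: it was -0.12 in FAC against control (95% confidence interval -0.27 to 0.039), 0.14 with liproxstatin-1 against FAC (-0.017 to 0.29) and 0.14 with Mito-TEMPO against FAC (-0.016 to 0.30). Without FAC replicate 2, Bag3 was called higher in both pretreated groups than in FAC, by 0.22 in each (edgeR adjusted p = 0.0275 with liproxstatin-1 and 0.0273 with Mito-TEMPO). With offsets for GC content and length it was also called higher with liproxstatin-1 (0.22, edgeR adjusted p = 0.0198). Its window holds 1 match, after the start at 42 to 49.

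Hsf1 itself lies on the plus strand of chromosome 15 at 76477422 to 76501913 (ENSMUSG00000022556). It stood at 44.9, 43.1 and 45.9 CPM in control and at 61.4, 60.9 and 52.2 CPM in FAC. The values were 53.5, 53.4 and 48.2 CPM in Lip-1+FAC and 53.7, 51.9 and 52.0 CPM in MT+FAC. Every library that had received FAC lay above every control library, and the pretreated libraries overlapped FAC replicate 3. Hsf1 rose by 0.38 in FAC (SE 0.0739, edgeR adjusted p = 0.000535). Against FAC the differences were -0.17 with liproxstatin-1 (95% confidence interval -0.33 to -0.017) and -0.15 with Mito-TEMPO (-0.30 to 0.0054), neither of them called (edgeR adjusted p = 0.0718 and 0.115). Without FAC replicate 3 both were called, at -0.24 and -0.22 (edgeR adjusted p = 0.0147 and 0.0239). The difference with liproxstatin-1 was also called among genes with a mean of at least 5 CPM (-0.19, edgeR adjusted p = 0.0431), and that with Mito-TEMPO with offsets for GC content and length (-0.21, edgeR adjusted p = 0.0253).

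Pretreatment with liproxstatin-1 left 5 of the 9 genes called lower than in FAC and 1 higher, where 19.2% of all genes tested were called lower and 20.7% higher. With Mito-TEMPO 6 were called lower and 1 higher, where 19.7% and 21.2% were. The genes called lower with both were Hspa1a, Hspa1b, Dnajb1, Hspb1 and Hspa8, Hsp90aa1 was called lower with Mito-TEMPO, and Hsph1 was the gene called higher with both. These comparisons share the FAC libraries with that of FAC against control, so they are not independent of it. Leaving out FAC replicate 2, the deepest library, the rises in FAC were 1.44 for Hspa1a, 1.16 for Hspa1b and 0.58 for Hspb1, all called, and the falls of Hspa1b and Hspb1 with each pretreatment were also still called. Without that library 3 genes were called lower with liproxstatin-1 and 2 higher, since Hspa1a and Hspa8 lost their calls and Bag3 gained one. With Mito-TEMPO 6 were then called lower and 2 higher, Bag3 being added. Of all 13851 genes then tested, 4704 were called in either direction with liproxstatin-1 and 4781 with Mito-TEMPO.

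Whether the pretreated cells differed from untreated cells was measured against control. With liproxstatin-1, Hsph1 and Hsf1 were called higher and Hspb1 lower, where 15.4% of all genes were called higher and 14.8% lower. With Mito-TEMPO the same 3 genes were called in the same directions, where 9.71% and 10.1% were. Hsf1 was higher by 0.21 with liproxstatin-1 (SE 0.0744, edgeR adjusted p = 0.0390) and by 0.23 with Mito-TEMPO (SE 0.0742, edgeR adjusted p = 0.0327). Both calls on Hsf1 were lost without control replicate 1 (edgeR adjusted p = 0.0738 and 0.0732) and without control replicate 2 (0.101 and 0.0854). With liproxstatin-1 the call was also lost without Lip-1+FAC replicate 1 (edgeR adjusted p = 0.110), Lip-1+FAC replicate 2 (0.112) or MT+FAC replicate 1 (0.0614), and with Mito-TEMPO without MT+FAC replicate 1 (0.114), 2 (0.0649) or 3 (0.0698). The first was lost as well with upper-quartile scaling (edgeR adjusted p = 0.0636) or only the compared libraries (0.0511), and the second with the strand columns summed (0.0534). Dnajb1 differed from control by 0.0021 with liproxstatin-1 (95% confidence interval -0.15 to 0.16) and by -0.11 with Mito-TEMPO (-0.26 to 0.043). Hspa1a differed by 0.68 (0.0094 to 1.35) and 0.020 (-0.67 to 0.71), with wide intervals. The difference with liproxstatin-1 was called with the strand columns summed (0.89, edgeR adjusted p = 0.0391) and with offsets for GC content and length (0.83, edgeR adjusted p = 0.0490).

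The pretreatments were also compared with each other directly. None of the 9 genes was called (edgeR), where 1.34% of all genes tested were, although 4 of the 9 reached an unadjusted p under 0.05, as did 13.3% of all genes tested, and DESeq2 also called 0. Hsph1 had the smallest p, its log2 difference of MT+FAC from Lip-1+FAC being -0.21 (95% confidence interval -0.35 to -0.070, edgeR adjusted p = 0.134). Hsp90aa1 differed by -0.16 (-0.27 to -0.042), Hspa8 by -0.13 (-0.25 to -0.0071) and Hspa1a by -0.66 (-1.32 to -0.00087), all toward lower levels with Mito-TEMPO. For these 4 genes and Dnajb1 every MT+FAC library lay below every Lip-1+FAC library, an arrangement found in 9.6% of all genes tested. Hspb1 differed by -0.0016 (-0.23 to 0.22) and Bag3 by 0.00095 (-0.15 to 0.16).

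**Figure D3:**
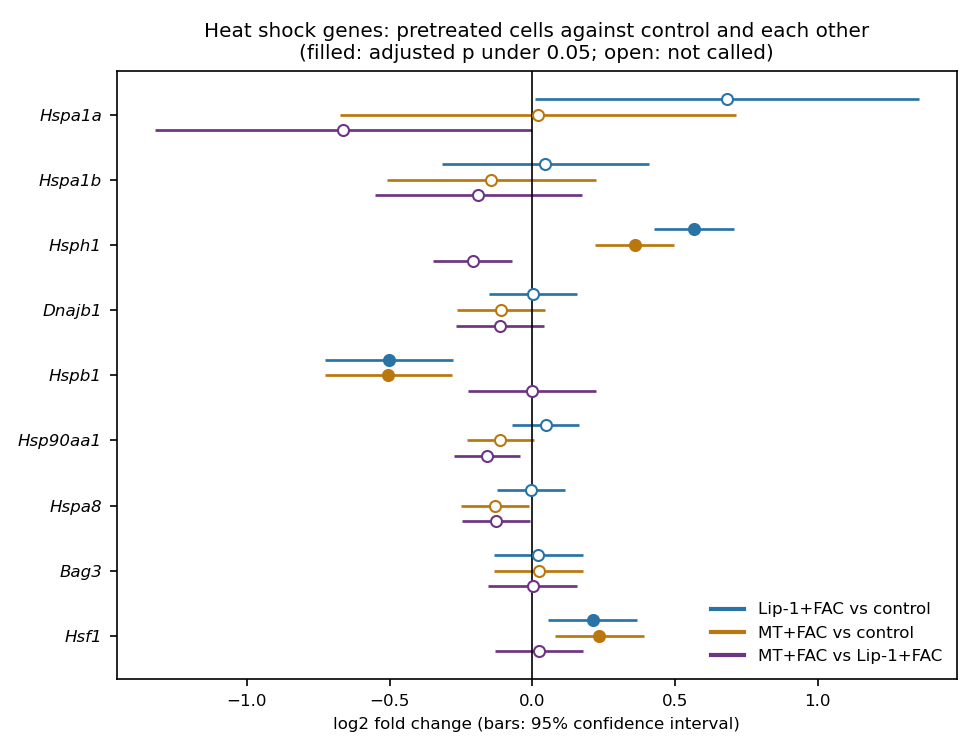
Log2 fold changes (x axis) with 95% confidence intervals for the 9 genes (y axis) in each pretreated group against control and in MT+FAC against Lip-1+FAC. Filled points passed an adjusted p under 0.05; Hsph1 and Hsf1 lie right of 0 and Hspb1 left of 0 for both groups against control, and no filled point belongs to the comparison of the pretreatments.

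**Figure D4:**
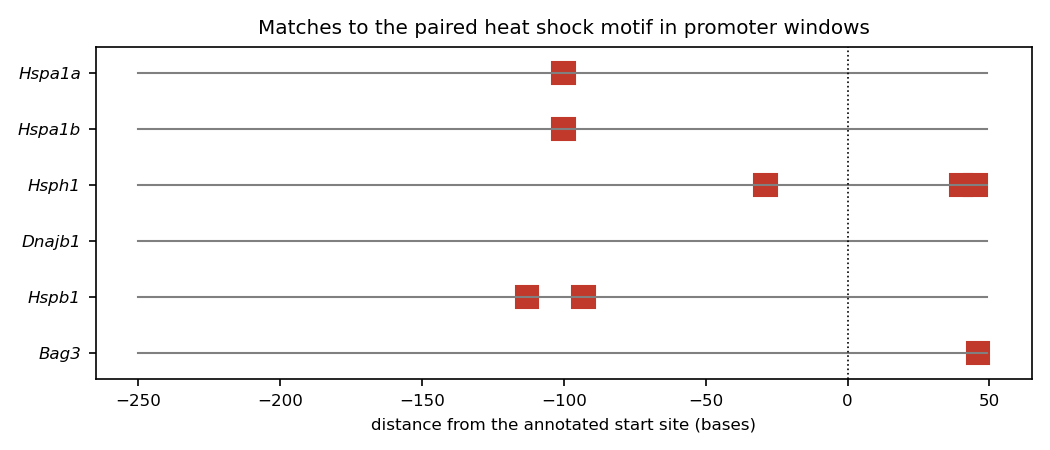
Positions of the matches to GAANNTTC or TTCNNGAA (boxes) along the promoter windows of the 6 genes with a RefSeq window (y axis), by distance from the annotated start in bases (x axis). Only the window nearest the annotated start is shown, and Hsph1 and Dnajb1 each have another. Hspa1a and Hspa1b share 1 position, Hspb1 has 2 matches, Hsph1 has 3 of which 2 overlap, Bag3 has 1 after the start and Dnajb1 has 0.

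Other genes of the chaperone network were read from 10 lists of 78 genes, of which 74 were tested. In FAC against control 17 of them (22.97%) were called higher and 15 (20.3%) lower, near the 17.5% and 19.1% of all genes tested. With liproxstatin-1 against FAC 15 (20.3%) were called higher and 16 (21.6%) lower, where 20.7% and 19.2% of all genes were. With Mito-TEMPO 9 (12.2%) were called higher, below the 21.2% of all genes, and 17 (22.97%) lower, where 19.7% of all genes were. These shares were not tested against those of all genes.

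Of the 4 other small heat shock protein genes tested, 3 were called higher in FAC, where 17.5% of all genes were, with a list median of 0.64. Cryab and Hspb6 were, like Hspb1, called higher in FAC and lower than FAC with each pretreatment. Cryab, the gene of alpha B-crystallin, rose by 0.72 (edgeR adjusted p = 0.00832), Hspb6 by 0.30 (edgeR adjusted p = 0.0110) and Hspb8, the partner of BAG3, by 0.60 (edgeR adjusted p = 1.76e-07). Hspb7 averaged 0.669 ± 0.129 CPM in control and 1.08 ± 0.464 CPM in FAC, which was not called (0.68, edgeR adjusted p = 0.286). The call on Cryab was lost without FAC replicate 3 (0.50, edgeR adjusted p = 0.0542) and that on Hspb6 without control replicate 2 (0.24, edgeR adjusted p = 0.0604). Against FAC, the log2 fold changes with liproxstatin-1 and with Mito-TEMPO were -1.20 and -1.04 for Cryab, -1.14 and -0.84 for Hspb6 and, on 1 to 52 reads per library, -2.47 and -1.94 for Hspb7, all called (largest edgeR adjusted p = 0.00617). The fold changes of these 3 genes had the direction of those of the 4 cholangiocyte markers and of Cd68 and Reln given above, whose part was not tested, while without Cd68 the macrophage sums of the pretreated groups overlapped those of FAC, and without Reln the stellate sum was lowest in FAC. Hspb8 had another pattern. Its mean was 281 ± 12.8 CPM in control cells, 425 ± 17.5 with FAC, 408 ± 9.26 with Lip-1+FAC and 343 ± 11.8 with MT+FAC (SD, n = 3). It was not called lower with liproxstatin-1 (-0.059, edgeR adjusted p = 0.397), fell by 0.31 with Mito-TEMPO (edgeR adjusted p = 0.000189), and was called between the pretreatments, at -0.25 in MT+FAC against Lip-1+FAC (edgeR adjusted p = 0.0261). That last call was lost without replicate 1 or 2 of Lip-1+FAC or replicate 1 or 3 of MT+FAC (edgeR adjusted p = 0.104 to 0.112). In both pretreated groups it stayed above control, by 0.54 and 0.29 (edgeR adjusted p = 9.17e-07 and 0.00112). Hspb6, Hspb7 and the genes Bag2, Bag4, Bag5, Stub1, Cct4, Hspa14 and Ubb below were named after their values were seen.

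Of 13 genes of HSP90 and its co-chaperones tested, 6 were called lower in FAC and the other 7 were not called, with a median of -0.073. Over all genes tested, 19.1% were called lower. Under offsets for GC content and length, 4 of the 13 genes were called lower and 3 higher in FAC. With these offsets 5015 of all 13521 genes were called in either direction. Chordc1, an HSP90 co-chaperone, fell by 0.29 (edgeR adjusted p = 0.00345) and Fkbp4, an HSP90-bound immunophilin, fell by 0.19 (edgeR adjusted p = 0.0106). Mean levels of Chordc1 were 89.7 ± 5.74 CPM in control cells, 73.5 ± 2.53 with FAC, 101 ± 6.78 with Lip-1+FAC and 87.7 ± 5.70 with MT+FAC (SD, n = 3). Against FAC it rose by 0.46 with liproxstatin-1 (edgeR adjusted p = 4.90e-05) and by 0.25 with Mito-TEMPO (edgeR adjusted p = 0.00754), the directions of Hsph1. Of the 13 genes, 2 were called higher and 3 lower with liproxstatin-1 against FAC, and 3 higher and 2 lower with Mito-TEMPO. Over all genes tested, 20.7% were called higher and 19.2% lower with liproxstatin-1, and 21.2% and 19.7% with Mito-TEMPO. Ahsa1, the activator of the HSP90 ATPase, differed by -0.14 in FAC at the edge of the threshold (edgeR adjusted p = 0.0499), a call that DESeq2 did not make (adjusted p = 0.0660). It was lost when any library except FAC replicate 3 was left out (edgeR adjusted p = 0.0550 to 0.179), and with those offsets the difference was -0.038 (edgeR adjusted p = 0.587). The call on Fkbp4 was also lost with the offsets (-0.095, edgeR adjusted p = 0.174). The constitutive HSP90 gene Hsp90ab1 (0.10, edgeR adjusted p = 0.168) and Stip1, which links HSP70 to HSP90 (0.072, edgeR adjusted p = 0.373), were not called. With the offsets both were called higher in FAC, Hsp90ab1 by 0.20 (edgeR adjusted p = 0.0106) and Stip1 by 0.17 (edgeR adjusted p = 0.0157).

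Among the other HSP70 and HSP110 genes 2 of 4 were called higher in FAC and 1 lower, where 17.5% and 19.1% of all genes tested were. Hspa4, an HSP110 relative, rose by 0.28 (edgeR adjusted p = 0.00195) and Hspa14 fell by 0.43 (edgeR adjusted p = 0.000518). Hspa4l was called higher by 0.17 (edgeR adjusted p = 0.0454), but with offsets for GC content and length it was -0.080. That call was also lost without control replicate 2 or 3, FAC replicate 1 or 3, Lip-1+FAC replicate 1 or 2, or MT+FAC replicate 3 (edgeR adjusted p = 0.0534 to 0.145), and with upper-quartile scaling, no filter or only the compared libraries (0.0589 to 0.0719). Of the 10 other J-domain genes 1 was called higher in FAC and 2 lower, beside 17.5% and 19.1% of all genes tested. Dnaja1, an HSP70 partner in the cytosol, fell by 0.27 in FAC (edgeR adjusted p = 0.000815) and rose by 0.22 with liproxstatin-1 against FAC (edgeR adjusted p = 0.00397), opposite to Dnajb1. That rise was 0.10 and not called with the offsets for GC and length (edgeR adjusted p = 0.107). Dnajb4 was at the threshold (-0.19, edgeR adjusted p = 0.0499) and was not called by DESeq2 (adjusted p = 0.0799). Its call was lost when any library except FAC replicate 1 or Lip-1+FAC replicate 3 was left out (edgeR adjusted p = 0.0594 to 0.206). Dnaja4 was not called in FAC (0.0052, edgeR adjusted p = 0.981). With liproxstatin-1 against FAC it was called lower (-0.54, edgeR adjusted p = 0.00865), and was -0.35 with the strand columns summed (edgeR adjusted p = 0.0250).

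Of the 8 nucleotide exchange factors and partners of HSP70, 2 were called higher in FAC, Bag5 by 0.25 (edgeR adjusted p = 0.0129) and Bag4 by 0.43 (edgeR adjusted p = 0.0425). Over all genes tested, 17.5% were called higher. The call on Bag4 was lost without control replicate 1 or 2, FAC replicate 1 or 2, Lip-1+FAC replicate 2 or MT+FAC replicate 1 (edgeR adjusted p = 0.0513 to 0.172), with upper-quartile scaling (0.0529) and with offsets for GC content and length (0.0642). With each pretreatment 4 of the 8 were called lower than in FAC, namely Bag2, Bag4, Bag5 and Stub1. With liproxstatin-1 1 of the 8 was called higher, and with Mito-TEMPO 0. Over all genes tested, 19.2% and 19.7% were called lower and 20.7% and 21.2% higher. The call on Bag5 with Mito-TEMPO (-0.22, edgeR adjusted p = 0.0253) was lost without FAC replicate 2 or 3, or MT+FAC replicate 1 or 3 (edgeR adjusted p = 0.0641 to 0.120), and with no filter on low counts (0.0576). Stub1, the gene of the ubiquitin ligase CHIP that tags HSP70 clients, fell by 0.77 with liproxstatin-1 and fell by 0.75 with Mito-TEMPO. When the counts of both strand settings were summed, these falls were -0.26 and -0.13 and the second was not called (edgeR adjusted p = 0.0669). The fall with liproxstatin-1 was -0.50 with the offsets for GC and length. The chaperonin TRiC, which folds actin and tubulin, showed 1 call among 8 subunits in FAC, Cct4 at 0.15 (edgeR adjusted p = 0.0311), which was lost without control replicate 2 or 3, or FAC replicate 1 or 2 (edgeR adjusted p = 0.0559 to 0.118), with upper-quartile scaling (0.0560) and with no filter on low counts (0.0625). With the offsets Cct4 rose by 0.25 and 2 subunits were called. Over all genes tested, 36.6% were called in either direction without the offsets, and 5015 of 13521 genes with them.

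Of the 4 other heat shock factor genes and binding proteins tested, Hsf2 alone was called in FAC, rising by 0.63 (edgeR adjusted p = 0.00647) from 3.89 ± 0.220 to 6.01 ± 0.235 CPM (SD, n = 3). Over all genes tested, 36.6% were called in either direction. Ubb, a ubiquitin gene and a known non-chaperone target of HSF1, rose by 0.42 in FAC (edgeR adjusted p = 6.68e-05). Against FAC, its log2 fold change was -0.28 with liproxstatin-1 (edgeR adjusted p = 0.00212) and -0.44 with Mito-TEMPO (edgeR adjusted p = 3.98e-05). The first was -0.18 with offsets for GC content and length and still called (edgeR adjusted p = 0.0157). Serpinh1, the collagen chaperone HSP47, was not called in FAC (-0.23, edgeR adjusted p = 0.454). With liproxstatin-1 against FAC it was called higher (0.58, edgeR adjusted p = 0.0445), unlike Ubb, but not by DESeq2 (adjusted p = 0.0519). That call was also lost without control replicate 1, FAC replicate 1 or 3, or any replicate of a pretreated group (edgeR adjusted p = 0.0531 to 0.173).

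Of 9 mitochondrial chaperone and protease genes 2 were called higher and 2 lower in FAC, near the 17.5% and 19.1% of all genes. The mitochondrial HSP70 gene Hspa9 rose by 0.14 (edgeR adjusted p = 0.0313), and by 0.23 with offsets for GC content and length. The call was lost without control replicate 2 or 3, or FAC replicate 1 or 2 (edgeR adjusted p = 0.0527 to 0.118) and with upper-quartile scaling (0.0600). The chaperonin genes Hspd1 (-0.069, edgeR adjusted p = 0.326) and Hspe1 (-0.098, edgeR adjusted p = 0.410) were not called in FAC. Against FAC, Hspd1 was called higher with liproxstatin-1 (0.24, edgeR adjusted p = 0.00129), and by 0.14 with the offsets (edgeR adjusted p = 0.0310). Of 11 endoplasmic reticulum genes 3 were called higher and 4 lower in FAC, where 17.5% and 19.1% of all genes were. Hspa5, the gene of the luminal HSP70 BiP, rose by 0.27 in FAC (edgeR adjusted p = 0.00549). Hspa5 was not called with either pretreatment against FAC (-0.075 and -0.14, edgeR adjusted p = 0.417 and 0.132), but was with offsets for GC content and length (-0.22 and -0.26) and, for Mito-TEMPO, without MT+FAC replicate 2 (-0.22, edgeR adjusted p = 0.0255).

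**Figure D5:**
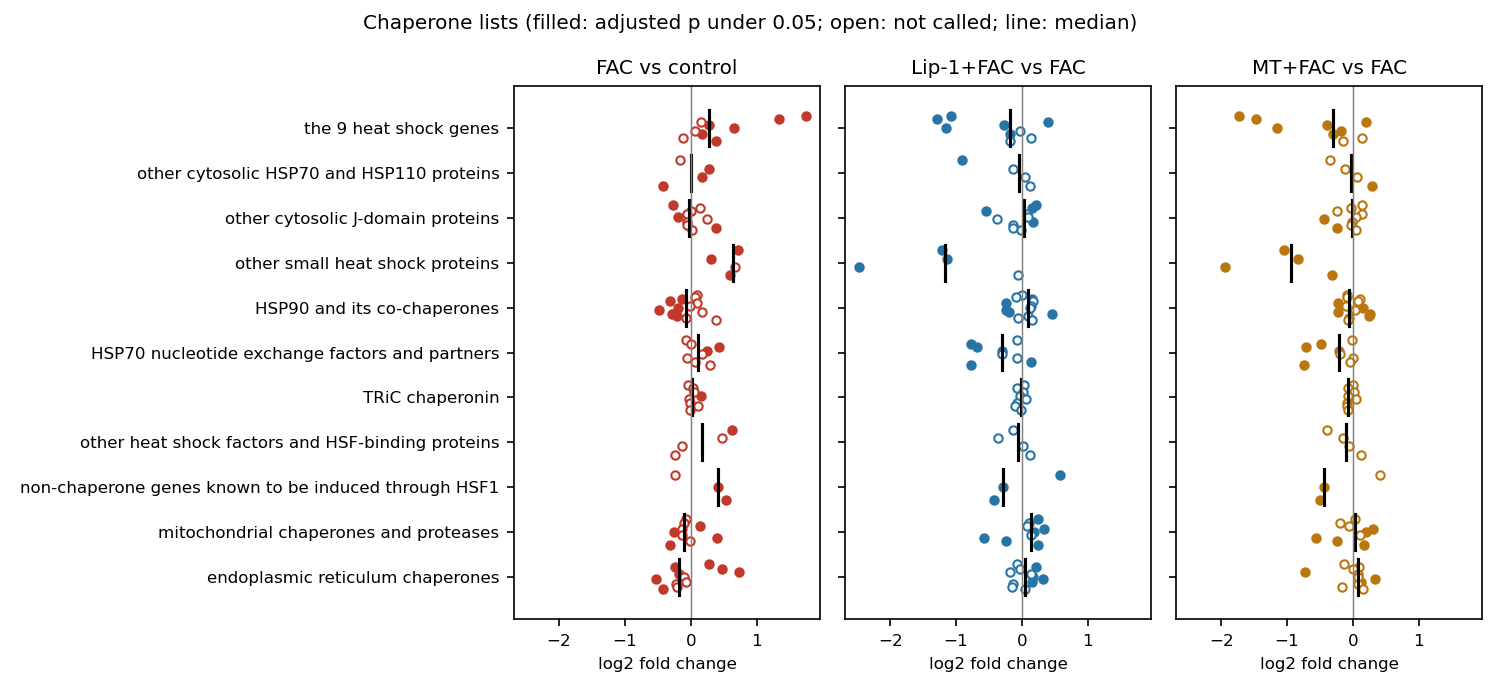
Log2 fold changes (x axis) of the tested genes of each chaperone list and of the 9 heat shock genes (y axis) in FAC against control and in each pretreated group against FAC. Each point is a gene, filled where the adjusted p was under 0.05, and the black line is the list median. The small heat shock proteins have medians of 0.64, -1.17 and -0.94, while the medians of HSP90 with its co-chaperones are -0.073, 0.088 and -0.064.

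Genes whose pattern over the 12 libraries was most like that of the heat shock genes were ranked by Pearson's r of log2 CPM among 8992 protein-coding genes with a mean of at least 5 CPM. For the mean standardised pattern of the 9 genes these were Fbrsl1 (r = 0.964), Srsf11 (0.95), Oser1 (0.941), Rbm25 (0.936) and Mcl1 (0.931), the last an anti-apoptotic BCL2 family gene. For Hspa1b they were Zbtb2 (r = 0.988), Bcar1 (0.981), Zfp553 (0.975), Asb6 (0.970) and Gde1 (0.968). Zbtb2 stood at 11.3, 30.0, 12.005 and 10.1 CPM on average in control, FAC, Lip-1+FAC and MT+FAC, the shape of Hspa1b with its single high group. For Hsph1 they included Kif16b (r = 0.974), Rb1cc1 (0.972), Uhrf2 (0.970) and Abcc2 (0.965). These are descriptions over 12 libraries in 4 groups, and the libraries of a group share their treatment.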

How the data were processed

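Messenger RNA was measured in 12 libraries of primary mouse hepatocytes. Per the labels' protocols, cDNA was amplified with SMART-Seq v4 and libraries were made with Nextera XT, without stated molecular identifiers, and sequenced as paired ends. The deposited files hold raw counts per gene, not normalised, in the layout of STAR, which with the build GRCm38 is named in the submitters' processing notes. Its version and annotation are not given in the sources used here. The unstranded column was used. Lines that name no gene stayed out, and reads assigned to genes were 75.8% to 81.2% of those listed.

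From these, counts were tested with edgeR 4.0.16 in R 4.3.3 (filterByExpr, TMM, robust quasi-likelihood F tests on all 12 libraries with 4 group means). P-values are two-sided and adjusted by Benjamini-Hochberg over 13535 genes with a threshold of 0.05. Each standard error is the log2 fold change divided by the square root of its F. Symbols, coordinates and transcript lengths come from GENCODE M21, in which 55227 identifiers were found, and promoter windows from RefSeq. The scripts were tested on simulated data. Replicates of a group correlated at 0.986 to 0.991 across genes, and each pair differed by more than counting error.

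The 9 genes, the lists and the markers were chosen with earlier results of these data known. The rule for names took the 9 genes, 18 genes of the lists whatever their value, and the 5 genes most like each of 3 patterns. Some genes that it took are not reported here. Alternatives were RLE and upper-quartile scaling, other filters, DESeq2 1.42.0, only the compared libraries, a replicate block, summed strand columns, offsets for GC content and length, summed Hspa1a and Hspa1b counts, and leaving out each library. Applying them to the list genes was chosen after seeing the data.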

Additional observations from a re-analysis of the deposited data

How the results depend on the processing

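Of 1170 values of the 9 genes recomputed under 22 alternatives, 1077 kept their direction and their side of the threshold, 30 lost a call and 19 gained one. The sign differed in 44, none of them called in either fit and all of comparisons with a reported log2 fold change of at most 0.047 in size. In FAC against control 6 of them were called, with 5 to 7 when a library was left out. For liproxstatin-1 against FAC it was 6, with 5 to 7 (3 to 6 lower and 1 to 2 higher), and for Mito-TEMPO against FAC 7, with 6 to 8 (5 to 7 lower and 0 to 2 higher). The single higher call with Mito-TEMPO, Hsph1, was lost without FAC replicate 1 or 3 or MT+FAC replicate 1 or 2. Between the pretreatments it was 0 under every alternative run. Against control it was 3 for each pretreated group, with 2 to 3 for liproxstatin-1 and 2 to 4 for Mito-TEMPO when a library was left out. In these refits 13787 to 13940 genes were tested. Of these, 4048 to 4986 were called in FAC against control, 4566 to 5616 with liproxstatin-1 against FAC and 4488 to 5756 with Mito-TEMPO. Between the pretreatments 74 to 255 were called. Against control 3233 to 4180 were called with liproxstatin-1 and 1794 to 2838 with Mito-TEMPO.

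Offsets for GC content and length moved the most calls, to 8, 8 and 7 genes in the first 3 comparisons. Over all 13521 genes tested with them, 5015, 5326 and 5543 were called. With the offsets 3 list values changed sign and lost their call. Hspa4l was -0.080 in FAC and -0.070 in Lip-1+FAC against control (0.17 and 0.22 without offsets). Dnajb14 was -0.029 in Lip-1+FAC against control. The cause was not tested. Of 3808 values of the named list genes, 176 lost a call and 51 gained one. The sign differed in 98, of which 95 were called in neither fit. All 98 were of comparisons with a reported log2 fold change of at most 0.293 in size.

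Hsph1 in FAC against control, 0.16, was called with RLE scaling (edgeR adjusted p = 0.0470), a mean of at least 5 CPM (0.0492), those offsets (0.0446), and without FAC replicate 3 (0.0216) or MT+FAC replicate 2 (0.0493). The replicate numbers showed no clear pairing of the libraries, although correlations of 3 libraries per group cannot exclude a weak one. Same-numbered libraries deviated together with correlations of -0.25 to 0.16, and 4 of 12 correlated best with their own number. The mean correlation was 0.011 for the same number and -0.0058 for other numbers. With a replicate block 7 of the 9 were called in FAC against control, Hsph1 being added (edgeR adjusted p = 0.0348), 6 and 7 for the pretreatments against FAC, 0 between them and 3 for each against control. Of all 13535 genes, that fit called 4863 in FAC against control, 5278 and 5488 for the pretreatments against FAC, and 193 between them. Against control it called 3961 genes with liproxstatin-1 and 2553 with Mito-TEMPO. Of the 9 genes Hspa1a had the fewest reads, 19 to 231 per library.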
